A study of Mus musculus with 40 samples.

Results

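Basic fibroblast growth factor (bFGF, the protein that *Fgf2* encodes) was compared with no ligand (CTRL) in cultured mouse cardiac fibroblasts that kept TAK1, the kinase that *Map3k7* encodes. The comparison took the 4 LacZ libraries treated with bFGF and the 4 LacZ libraries without ligand, which are 8 of the 40 RNA-seq libraries of the study, and joined them in 4 pairs by their replicate number. All genes with at least 10 counts summed over the 40 libraries were tested, which were 25210 of the 55414 genes in the count table. All cells came from C57BL/6J mice with a floxed *Map3k7* gene (TAK1 fl/fl), were transduced with an adenovirus and were starved of serum. In LacZ cells the virus (ad-CMV-LacZ) carried a bacterial β-galactosidase gene under the CMV promoter, so the floxed gene stayed whole. In the iCre cells used for 1 later comparison the virus (ad-CMV-iCre) carried Cre recombinase under the same promoter, which acts in any transduced cell. bFGF was given at 20 ng/ml and TGFβ, the ligand of another comparison, at 10 ng/ml, each for 24 h. The study describes 4 biological replicates from male mice and cells at passage 1. The medium used to grow the cells before starvation held bFGF and serum, so CTRL cells had met bFGF earlier and were then deprived of it. The study's methods describe the mice as adult, and their age in weeks is not given in the sources used here.

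Fibroblast growth factors bind receptor tyrosine kinases (FGFR1 to FGFR4) together with heparan sulfate chains on the cell surface. The receptors switch on the RAS, MEK and ERK kinase cascade, which drives ETS-family transcription factors and genes needed to enter the cell cycle. The same cascade induces its own inhibitors, among them Sprouty and SPRED proteins and the ERK phosphatases of the DUSP family, so these transcripts are commonly read as a record of ERK activity. In fibroblasts bFGF is known chiefly as a mitogen.

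The 8 libraries held between 29853838 and 51264530 counts in genes, with a median of 37618017. Mitochondrial transcripts took between 0.618 and 0.945% of counts. Levels are given as CPM (counts scaled to a common library size by TMM, edgeR's trimmed mean of M-values), which allow a gene to be compared between libraries but not with another gene. Libraries of the same replicate number deviated together from their group means, with Pearson's r between 0.55 and 0.78 across 13164 genes for the CTRL and bFGF libraries of each number. Pairs of different numbers gave r between −0.53 and 0.24. Replicate number was therefore a term in the test, which was edgeR's quasi-likelihood F test with Benjamini-Hochberg adjustment over the 25210 genes. A gene was called at an adjusted p of at most 0.05. Errors of log2 fold changes are standard errors of the fitted model, derived from the fold change and F. They are not the spread of the ratios of the 4 pairs. Replicate 2 stood apart. Its log2 ratios of bFGF to CTRL correlated with the mean of the other pairs at r = 0.77 across genes, against 0.88 to 0.91 for the remaining pairs. CTRL replicate 2 was the highest CTRL library in 27 of 32 tested genes of the ERK lists described below. Of these 32 genes, *Dusp1*, *Egr1* and *Egr3* crossed the threshold when replicate 2 was left out, and values without it are given beside them and beside several of the others.

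After 24 h of bFGF, 3309 genes were higher than in CTRL (13.1% of those tested) and 2995 were lower (11.9%), together 25.0%. Of these, 966 rose and 967 fell by at least 1 log2 unit. The 4 pairs moved in 1 direction in 6125 of the 6304 called genes. In 2379 genes (9.44% of all tested) every bFGF library lay above every CTRL library, and in 2264 (8.98%) every bFGF library lay below. The median log2 fold change over all tested genes was −0.04. Among the 13477 genes at 1 CPM or more in either group, which most listed genes below belong to, 23.0% rose and 19.1% fell. Without the replicate term the counts were 1844 higher (7.31%) and 1250 lower (4.96%), and 3067 of the 6304 genes kept their call. Without replicate 2 they were 3599 and 3463.

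**Figure D1:**
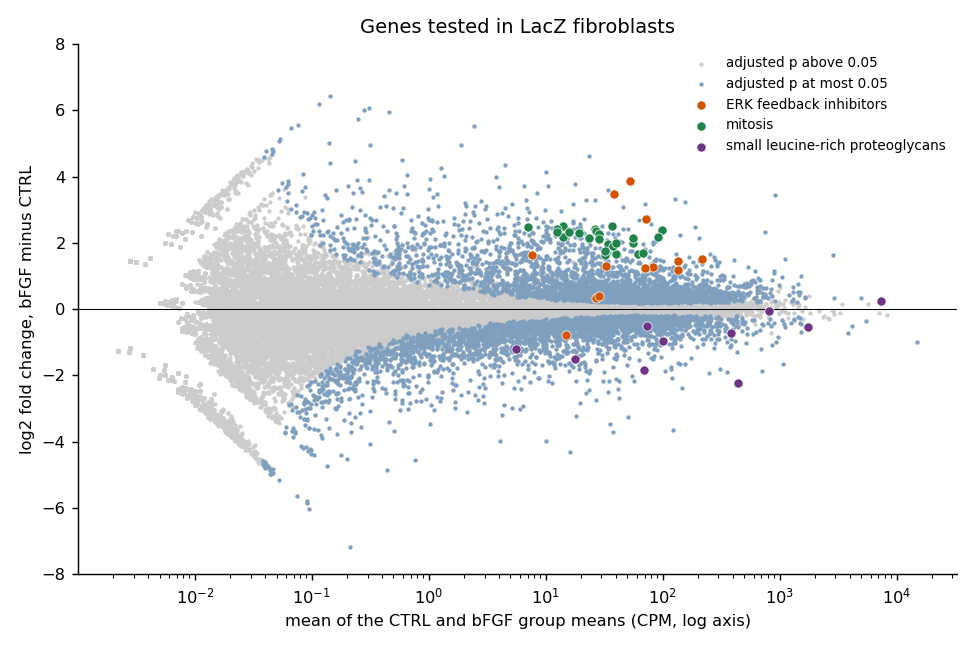
Log2 fold change of bFGF against CTRL (y axis) against mean level (x axis, CPM on a log scale), with called genes in colour. Shown are those of the 25210 tested genes with a mean level above 0. Of the 3309 genes called higher and the 2995 called lower, 3098 and 2578 stood at 1 CPM or more in a group. Beyond the plotted fold changes lie 0 genes.

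Genes that restrain ERK signalling were among those that rose most. Of 13 tested feedback inhibitors, 11 rose, 1 fell and 1 was not called, with a median log2 fold change of 1.29. Leaving out each replicate number in turn gave 9 to 12 higher (12 without replicate 2), and 9 were higher without the replicate term. *Spry4* (Sprouty 4, an inhibitor of receptor-to-RAS signalling) stood at 4.26, 13.2, 5.07 and 6.59 CPM in CTRL replicates 1 to 4. With bFGF it stood at 74.3, 102, 119 and 91.9 CPM. The lowest bFGF library was thus more than 5 times the highest CTRL library, and that CTRL library was replicate 2. bFGF raised it by 3.86 ± 0.24 log2 units (adjusted p = 0.000114), or 14.5-fold, and by 4.17 without replicate 2.

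*Dusp6*, the cytoplasmic phosphatase of ERK (ENSMUSG00000019960, GRCm38 chr10:99263231-99267489), measured 4.09, 15.0, 4.13 and 5.17 CPM in CTRL and 43.2, 87.9, 73.6 and 74.6 CPM with bFGF. CTRL replicate 2 again lay apart from the other 3 CTRL libraries, and the groups did not overlap. The log2 fold change was 3.48 ± 0.24 (adjusted p = 0.000162), and 3.81 without replicate 2. *Dusp4*, a nuclear phosphatase of ERK, measured 15.3, 20.2, 16.8 and 16.8 CPM in CTRL and 172, 36.6, 142 and 160 CPM with bFGF. Here it was the bFGF library of replicate 2 that fell short of the rest. The log2 fold change was 2.73 ± 0.41 (adjusted p = 0.00305) and 3.27 without that pair. *Spred1*, a membrane-bound RAS inhibitor, rose from 104, 146, 103 and 108 CPM to 295, 273, 351 and 375 CPM, by 1.52 ± 0.14 log2 units (adjusted p = 0.000435), and by 1.69 without replicate 2.

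Among the other feedback genes, *Spry1*, *Spry2*, *Spred2* and *Spred3* rose by 1.28, 1.18, 1.24 and 1.29 log2 units. *Errfi1*, an inhibitor of EGF receptors, rose by 1.46 ± 0.07 with 4 of 4 pairs higher, although its adjusted p was 0.0828 without the replicate term. *Dusp5*, a nuclear ERK phosphatase, rose from a mean of 4.26 ± 3.6 to 10.9 ± 2.3 CPM (SD, n = 4), by 1.62 ± 0.30 log2 units, and was not called without the replicate term (adjusted p = 0.106). Without replicate 2 its value was 2.06. *Dusp7* rose by 0.33 ± 0.07. *Il17rd*, which encodes the FGF antagonist SEF, was the 1 member that fell, by 0.78 ± 0.12 on the log2 scale (adjusted p = 0.00382, and 0.114 without the replicate term). *Dusp1*, a phosphatase with a preference for stress-activated kinases, had a log2 fold change of 0.38 ± 0.14 (adjusted p = 0.0882), and without replicate 2 it was called higher at 0.55 (adjusted p = 0.00101).

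The promoters of both are shown because *Dusp6* was the most induced ERK phosphatase and *Dusp5* was the 1 gene of the ERK lists whose window held a match to a searched binding element of serum response factor. Each runs from 250 bases before to 50 bases after the gene's start, 5′ to 3′ on the gene's strand, from RefSeq (GRCm38.p6). Capitals mark CArG boxes, the element bound by serum response factor, a partner of ETS proteins, and 2 of them lie side by side in *Dusp5*.
Dusp6 (chr10:99262981-99263280, plus strand): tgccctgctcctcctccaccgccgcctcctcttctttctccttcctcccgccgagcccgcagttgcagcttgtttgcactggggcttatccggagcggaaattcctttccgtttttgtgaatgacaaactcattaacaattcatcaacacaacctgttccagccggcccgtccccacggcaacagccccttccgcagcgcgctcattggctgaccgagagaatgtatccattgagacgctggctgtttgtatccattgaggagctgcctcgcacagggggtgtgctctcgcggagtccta
Dusp5 (chr19:53528895-53529194, plus strand): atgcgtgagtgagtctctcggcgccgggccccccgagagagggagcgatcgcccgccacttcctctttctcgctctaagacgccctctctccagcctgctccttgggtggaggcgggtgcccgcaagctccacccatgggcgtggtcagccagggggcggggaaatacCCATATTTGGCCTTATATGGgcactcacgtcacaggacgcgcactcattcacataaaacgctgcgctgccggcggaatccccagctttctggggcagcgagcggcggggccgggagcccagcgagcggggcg

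Windows were on hand for 21 of the 33 listed feedback and target genes. They were searched on both strands for CCGGAA (core of ETS sites), TGANTCA (AP-1), GCGGGAA (E2F), TTTGAA (the cell cycle homology region) and the CArG box. An ETS core was found in 1 of 21 (4.76%), against 15.2% of all 27025 windows in the table, and an AP-1 element in 0 of 21, against 7.93%. A CArG box was found in 1 of 21 (4.76%), against 1.57%. These are matches of letters in a short window only.

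**Figure D2:**
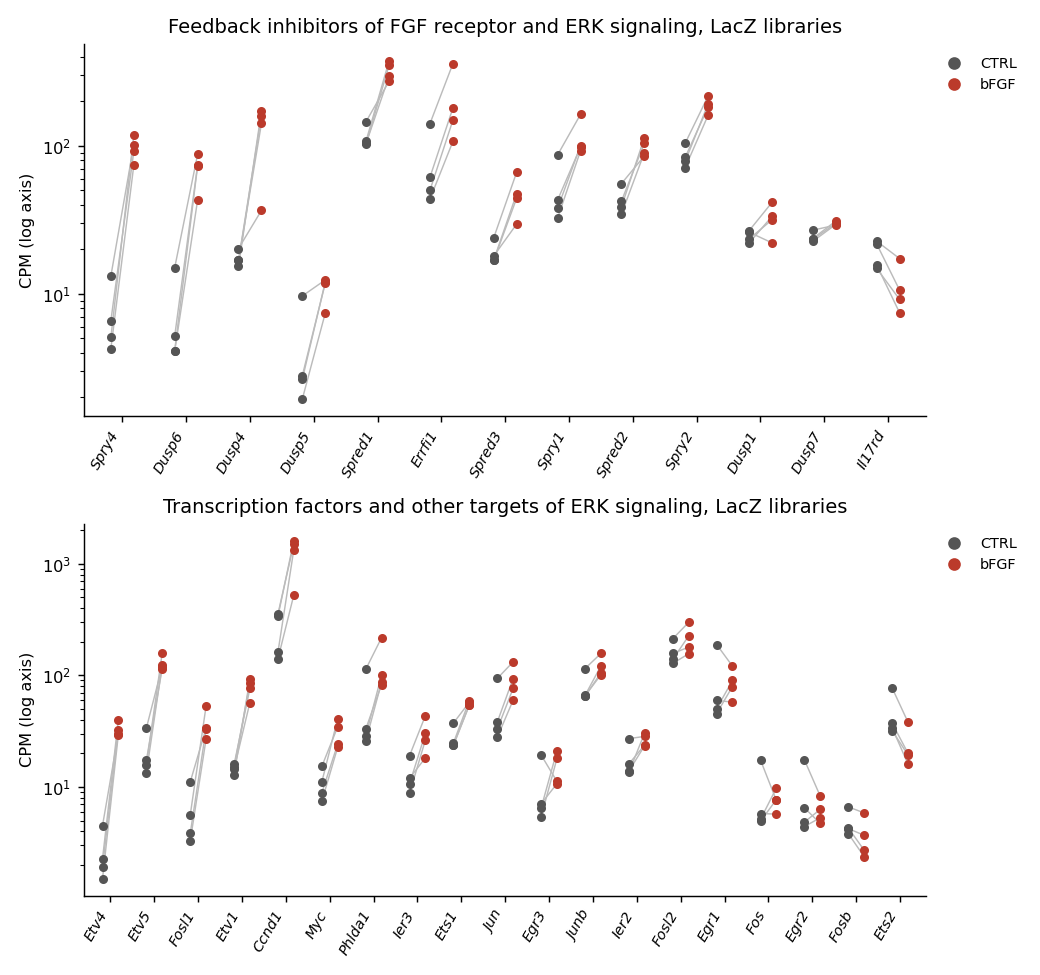
CPM (log axis) of the 13 tested ERK feedback genes and 19 ERK target genes in each of the 8 libraries, with a grey line joining the CTRL and bFGF library of the same replicate number. *Spry4*, *Dusp6*, *Etv4* and *Etv5* separate fully between groups, whereas *Egr1* and *Fos* overlap.

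Of 19 transcription factors and other direct targets of ERK, 13 rose, 1 fell and 5 were not called, with a median log2 fold change of 1.04. Leaving out each replicate number in turn gave 11 to 15 higher (15 without replicate 2), and 8 rose without the replicate term. The 3 PEA3-type ETS factors, which are standard reporters of FGF signalling, all rose. *Etv4* (ENSMUSG00000017724, chr11:101769742-101785371) measured 1.50, 4.50, 1.92 and 2.27 CPM in CTRL and 29.2, 29.7, 32.7 and 39.5 CPM with bFGF. The rise was 3.78 ± 0.26 log2 units (adjusted p = 0.000149), and 4.16 without replicate 2. *Etv5* (chr16:22381309-22439719) measured 13.4, 33.7, 15.7 and 17.3 CPM against 123, 120, 158 and 115 CPM, a change of 2.79 ± 0.23 (adjusted p = 0.000274), and 3.08 without replicate 2. In both genes CTRL replicate 2 stood well above the other CTRL libraries, whereas the bFGF libraries lay closer together. *Etv1* rose from 15.9, 14.6, 12.9 and 15.0 CPM to 76.4, 57.0, 92.8 and 84.8 CPM (log2 fold change 2.42 ± 0.13, adjusted p = 7.91e-05).

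Among AP-1 subunits the sustained member *Fosl1* (FRA-1) rose from 3.30, 11.1, 3.83 and 5.61 CPM to 26.7, 33.5, 32.8 and 52.7 CPM, by 2.73 ± 0.26 (adjusted p = 0.000515), and by 3.11 without replicate 2. *Jun*, *Junb* and *Fosl2* rose by 1.04, 0.68 and 0.43 log2 units, and none of these 3 was called without the replicate term (adjusted p = 0.18, 0.0914 and 0.248). The immediate early genes *Ier2* and *Ier3* rose by 0.66 and 1.24, the former not without the replicate term. Members of the EGR family and *Fos* and *Fosb* did not pass the test over all 4 pairs. *Egr1* measured 59.7, 189, 45.5 and 50.3 CPM in CTRL and 57.5, 121, 79.4 and 90.0 CPM with bFGF, so the groups overlapped. The difference came to 0.25 ± 0.23 log2 units (adjusted p = 0.535). Without replicate 2, where CTRL held the highest value of all 8 libraries, it was 0.53 with an adjusted p of 0.0388. *Egr2*, *Egr3*, *Fos* and *Fosb* stood at log2 fold changes of −0.22, 0.83, 0.10 and −0.39. Without replicate 2 *Egr3* was called higher at 1.35 (adjusted p = 0.00194), and *Egr2*, *Fos* and *Fosb* were not called at 0.06, 0.53 and −0.50.

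*Myc*, a driver of growth and ribosome production, rose from 8.89, 15.3, 7.45 and 11.1 CPM to 24.1, 34.5, 22.6 and 40.6 CPM, by 1.54 ± 0.12 (adjusted p = 0.000217). *Ccnd1* (cyclin D1, which opens G1, chr7:144929931-144939925) measured 162, 141, 356 and 339 CPM in CTRL and 1330, 523, 1500 and 1610 CPM with bFGF. The lowest bFGF library was replicate 2, and it still exceeded all CTRL libraries. The log2 fold change was 2.33 ± 0.18 (adjusted p = 0.00022), a fold of 5.02. *Ets1*, *Ier3* and *Phlda1* rose by 1.08, 1.24 and 1.47, the last with an adjusted p of 0.163 without the replicate term. *Ets2* was the 1 member that fell, from 45.1 ± 22 to 23.5 ± 10 CPM (log2 fold change −0.91 ± 0.08, adjusted p = 0.000316, and 0.141 without the replicate term).

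The FGF ligands, receptors and cofactors themselves gave 3 rises and 6 falls in 21 tested genes, and 2 rises and 3 falls without the replicate term. *Fgf1*, a broad ligand of all FGF receptors, measured 2.23, 3.18, 3.62 and 3.81 CPM in CTRL and 21.8, 10.2, 21.5 and 14.6 CPM with bFGF. The groups did not overlap, and the change was 2.38 ± 0.24 (adjusted p = 0.000632). *Fgf2* itself (ENSMUSG00000037225, chr3:37348346-37410108) measured 165, 222, 141 and 147 CPM against 204, 211, 213 and 209 CPM. Pair 2 moved down while the others moved up, and the change of 0.35 ± 0.10 (adjusted p = 0.0405) was lost without the replicate term (adjusted p = 0.153). *Fgf23*, a circulating FGF made mainly in bone, rose from a mean of 0.131 to 1.93 CPM (log2 fold change 3.92 ± 0.45). *Fgf18* fell from 8.33 ± 2.8 to 2.92 ± 0.61 CPM, and *Fgf9* and *Fgf16*, both below 1 CPM, were also called lower. *Fgf7*, the ligand of an epithelial FGFR2 form, did not pass the test at 60.3 ± 20 and 61.5 ± 28 CPM.

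Of the receptors, *Fgfr1* (ENSMUSG00000031565, chr8:25513654-25575718) measured 510, 469, 401 and 444 CPM in CTRL and 544, 523, 514 and 466 CPM with bFGF, a log2 fold change of 0.19 ± 0.07 that was not called (adjusted p = 0.0878). *Fgfr2* fell from 35.9, 37.1, 35.6 and 39.9 CPM to 25.4, 17.1, 22.6 and 12.2 CPM, by 0.97 ± 0.18 on the log2 scale (adjusted p = 0.00721). Its groups did not overlap. *Fgfr3* and *Fgfr4* were also called lower at levels of 2.24 and 0.224 CPM in CTRL, and neither was called without the replicate term (adjusted p = 0.251 and 0.0991). The decoy receptor *Fgfrl1* did not pass the test at 83.3 ± 23 and 83.4 ± 25 CPM.

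Heparan sulfate proteoglycans serve as coreceptors for FGFs. Of 11 tested, 2 rose and 5 fell, with 1 rise without replicate 1, 3 or 4 and 2 falls without the replicate term. The syndecans moved in both directions. *Sdc3* and *Sdc4* rose by 0.83 ± 0.06 and 0.66 ± 0.13, and *Sdc1* and *Sdc2*, named after their values were seen, fell by 0.60 and 0.56, the latter not without the replicate term. The glypicans *Gpc2*, *Gpc3* and *Gpc6* fell by 0.98, 1.37 and 0.90 on the log2 scale, and without the replicate term *Gpc3* alone of these kept its call. The basement membrane proteoglycans *Hspg2* and *Agrn* were not called, although *Agrn* was lower by 0.25 without replicate 2 (adjusted p = 0.0348).

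Nearly all genes of the DNA replication and mitosis lists were higher with bFGF. Of 27 tested genes of DNA replication 26 rose and 0 fell, with a median log2 fold change of 1.50, and of 26 genes of mitosis 26 rose, with a median of 2.16. With each replicate number left out, 26 replication genes stayed higher and 22 to 26 mitosis genes did (22 without replicate 1). Without the replicate term 23 and 20 were higher. Summed over the replication list, CTRL libraries held 322, 294, 390 and 398 CPM and bFGF libraries 740, 579, 767 and 911 CPM. Summed over the mitosis list, CTRL libraries held 227, 159, 607 and 688 CPM and bFGF libraries 1300, 1350, 1460 and 1760 CPM. CTRL replicates 3 and 4 thus held more than 2 times the mitosis transcripts of CTRL replicates 1 and 2, whereas the bFGF libraries were closer to each other. In both sums every bFGF library exceeded every CTRL library.

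*Mcm5*, a subunit of the replicative helicase, measured 2.61, 2.92, 7.06 and 7.84 CPM in CTRL and 26.3, 21.7, 29.9 and 39.7 CPM with bFGF, a change of 2.65 ± 0.20 (adjusted p = 0.000225). *Rrm2*, which makes deoxynucleotides, measured 4.24, 4.11, 7.52 and 7.67 CPM against 33.6, 20.7, 33.1 and 38.2 CPM, a change of 2.45 ± 0.14 (adjusted p = 0.000104). Both had the split of CTRL replicates 1 and 2 from 3 and 4. *Ccne2* (cyclin E2) rose by 3.06 ± 0.18. The origin recognition subunit *Orc6* was the 1 replication gene not called, at 20.8 ± 1.3 and 21.6 ± 0.99 CPM.

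In the mitosis list *Bub1*, a kinase of the spindle checkpoint, measured 2.03, 1.78, 7.03 and 8.34 CPM in CTRL and 15.6, 23.0, 24.0 and 30.1 CPM with bFGF, a change of 2.50 ± 0.32 (adjusted p = 0.00148). *Ccna2* (cyclin A2) measured 6.16, 3.73, 20.2 and 24.1 CPM against 56.0, 53.7, 61.1 and 72.5 CPM, a change of 2.50 ± 0.39 (adjusted p = 0.00344). The checkpoint kinase *Ttk* rose by 2.46 ± 0.33.

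The promoter windows of these lists shared letters that the making of the lists did not use, so examples are printed (RefSeq, GRCm38.p6, 250 bases before to 50 after the start). The examples were taken among windows that hold the element, so its presence in them is no result. Capitals mark GCGGGAA, an E2F element, in *Mcm3*, and the cell cycle homology region TTTGAA, on either strand, in *Ttk* and *Mki67*. *Mcm3* and *Mki67* were chosen as examples after their values were seen. *Cdc6* and *Plk1*, whose windows also hold an element, rose more than these, by 2.29 and 2.42.
Mcm3 (chr1:20820263-20820562, minus strand): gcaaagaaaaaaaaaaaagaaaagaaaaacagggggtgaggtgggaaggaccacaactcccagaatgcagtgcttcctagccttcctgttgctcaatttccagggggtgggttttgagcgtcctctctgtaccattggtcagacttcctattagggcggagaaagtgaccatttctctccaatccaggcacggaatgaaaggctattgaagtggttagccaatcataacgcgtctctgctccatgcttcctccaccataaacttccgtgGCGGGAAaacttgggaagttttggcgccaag
Ttk (chr9:83834439-83834738, plus strand): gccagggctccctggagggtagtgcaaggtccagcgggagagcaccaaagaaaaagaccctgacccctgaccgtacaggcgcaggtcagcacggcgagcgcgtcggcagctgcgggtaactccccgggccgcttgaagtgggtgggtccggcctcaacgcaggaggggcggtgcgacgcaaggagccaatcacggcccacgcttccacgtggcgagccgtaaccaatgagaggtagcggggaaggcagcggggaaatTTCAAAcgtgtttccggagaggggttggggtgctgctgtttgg
Mki67 (chr7:135716330-135716629, minus strand): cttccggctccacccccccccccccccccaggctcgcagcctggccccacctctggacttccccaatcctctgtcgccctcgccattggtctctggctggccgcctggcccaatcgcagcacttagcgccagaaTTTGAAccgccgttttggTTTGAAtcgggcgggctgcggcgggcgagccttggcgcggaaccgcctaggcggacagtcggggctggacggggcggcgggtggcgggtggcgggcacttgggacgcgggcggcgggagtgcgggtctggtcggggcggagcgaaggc

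The cell cycle homology region was found in 16 of 21 mitosis windows (76.2%), 3 of 20 replication windows (15.0%) and 18.1% of all windows. The E2F element was found in 7 of 20 replication windows (35.0%), 0 of 21 mitosis windows and 4.66% of all windows. The ETS core occurred in 40.0% of replication windows and 47.6% of mitosis windows, against 15.2% of all. A match of letters does not show that a factor binds.

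**Figure D3:**
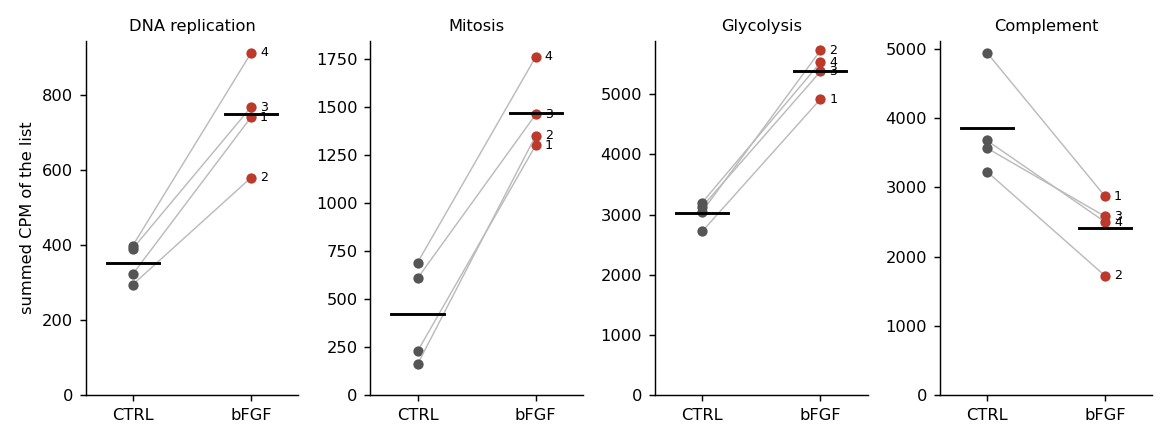
Summed CPM of the DNA replication, mitosis, glycolysis and complement lists in each library, by group, with black bars for the group mean, grey lines joining libraries of the same replicate number and that number beside each bFGF point. In the first 3 panels all bFGF libraries lie above all CTRL libraries, and in the complement panel all bFGF libraries lie below them.

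Regulators of G1 moved in both directions, with 6 higher and 6 lower of 15, and 3 higher and 2 lower without the replicate term. Besides *Ccnd1*, *Rbl1* (p107) rose by 1.41 ± 0.09 and *Cdkn2d* (p19INK4D) by 0.82 ± 0.08. Inhibitors of cyclin-dependent kinases made up the named falls. *Cdkn1c* (p57KIP2) measured 17.4, 152, 61.0 and 48.0 CPM in CTRL and 3.63, 47.2, 6.16 and 3.56 CPM with bFGF. Replicate 2 was the highest in both groups, so the groups overlapped although all 4 pairs fell. The change was −2.69 ± 0.33 (adjusted p = 0.00135), −3.16 without replicate 2, and not called without the replicate term (adjusted p = 0.201). *Cdkn1b* (p27KIP1) measured 129, 155, 125 and 119 CPM against 83.6, 115, 78.3 and 77.2 CPM, a change of −0.56 ± 0.07 (adjusted p = 0.00131). *Cdkn2a* fell by 0.51 ± 0.07, with an adjusted p of 0.0907 without the replicate term. *Cdkn1a* (p21) did not pass the test at 392 ± 55 and 371 ± 55 CPM.

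**Figure D4:**
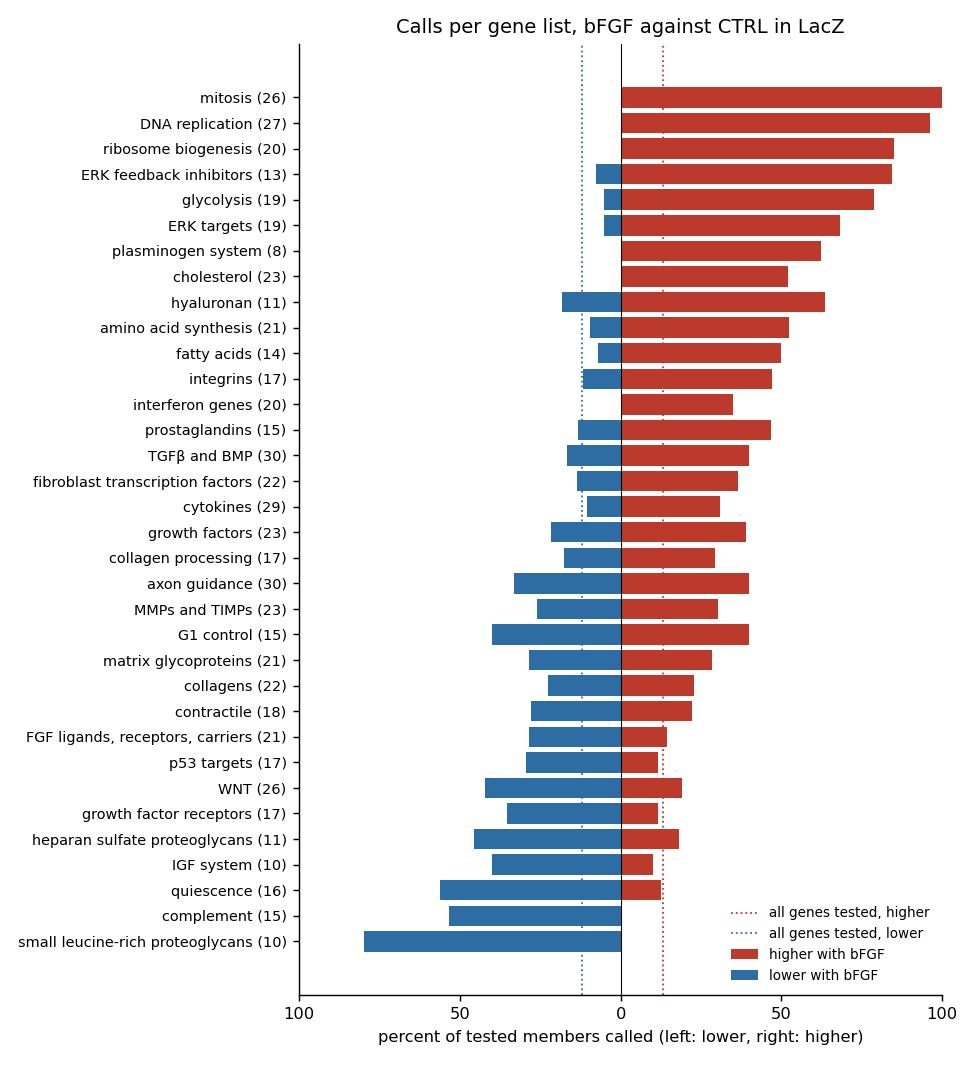
Percent of tested members called higher (right) or lower (left) for each of 34 gene lists, with dotted lines at the share over all tested genes, 13.1% higher and 11.9% lower. Among genes at 1 CPM or more in a group, which most listed genes belong to, the shares were 23.0% and 19.1%. The mitosis, DNA replication, ribosome biogenesis, ERK feedback and glycolysis lists have the longest bars for higher genes, and the small leucine-rich proteoglycans the longest for lower ones.

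The extracellular matrix showed no common direction for collagens but lower levels of several proteoglycans. Of 22 collagen genes 5 rose and 5 fell (22.7% each), near the 23.0% and 19.1% of all genes at 1 CPM or more. Leaving out each replicate number gave 3 (without replicate 1 or 3) to 7 (without replicate 2) higher and 4 to 7 lower, and without the replicate term 2 were higher and 1 lower. *Col3a1*, which encodes a fibrillar collagen, measured 25400, 13900, 22400 and 19400 CPM in CTRL and 12500, 8260, 9730 and 9080 CPM with bFGF. The groups did not overlap, and the change was −1.0 ± 0.11 (adjusted p = 0.000844). *Col1a1* measured 5620, 4120, 5070 and 4810 CPM against 4230, 2810, 3710 and 2960 CPM. All 4 pairs fell, but the groups overlapped, and its change of −0.51 ± 0.08 (adjusted p = 0.00372) was lost without the replicate term (adjusted p = 0.119). *Col1a2* fell by 0.35 ± 0.08, likewise only with the replicate term (adjusted p = 0.277 without it). The network and basement membrane collagens *Col8a1*, *Col15a1* and *Col18a1* rose by 1.10, 1.0 and 0.65, the first with an adjusted p of 0.173 without the replicate term. *Col5a1* and *Col5a2* were not called.

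Of 17 collagen-processing genes 5 rose (29.4%) and 3 fell (17.6%), against 23.0% and 19.1% of all genes at 1 CPM or more. There were 8 rises without replicate 2, and 3 rises and 1 fall without the replicate term. The lysyl oxidase *Loxl3* and the prolyl hydroxylases *P4ha1* and *P3h1* rose by 1.10, 0.76 and 0.60. *Plod2*, the lysyl hydroxylase of collagen telopeptides, fell by 0.75 ± 0.08. *Pcolce2* and *Adamts2* fell by 0.45 each, and neither was called without the replicate term (adjusted p = 0.699 and 0.305). *Lox* stood at 1050 ± 370 and 628 ± 240 CPM and was not called (log2 fold change −0.71, adjusted p = 0.0898). Without replicate 2 it was called lower at −0.35 (adjusted p = 0.00483).

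Small leucine-rich proteoglycans, which coat and space collagen fibrils, gave 0 rises and 8 falls in 10 genes, with a median log2 fold change of −0.85. Leaving out each replicate number gave 6 to 8 lower, and without the replicate term 4 were lower. *Ogn* (osteoglycin) measured 629, 1360, 507 and 452 CPM in CTRL and 146, 206, 120 and 107 CPM with bFGF. CTRL replicate 2 was the highest, every bFGF library lay below every CTRL library, and the change was −2.23 ± 0.12 (adjusted p = 7.4e-05). *Fmod* and *Ecm2* fell by 1.83 ± 0.20 and 1.51 ± 0.10, and *Fmod* was not called without the replicate term (adjusted p = 0.321). *Dcn* (decorin) fell by 0.55 ± 0.09. *Bgn* (biglycan) and *Prelp* did not pass the test, with log2 fold changes of 0.25 and −0.05, and without replicate 2 *Bgn* was called higher at 0.22 (adjusted p = 0.0403).

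Among 21 matrix glycoproteins 6 rose and 6 fell (28.6% each), with 2 and 1 without the replicate term. Of all genes at 1 CPM or more, 23.0% rose and 19.1% fell. *Ccn2* (connective tissue growth factor) measured 253, 67.1, 102 and 102 CPM in CTRL and 3420, 257, 1650 and 1450 CPM with bFGF. Replicate 2 had the smallest rise, and its bFGF library stood close to CTRL replicate 1. The change was 3.43 ± 0.34 (adjusted p = 0.000558), a fold of 10.8. *Spp1* (osteopontin) measured 623, 2170, 1240 and 1310 CPM against 1890, 8720, 3200 and 3500 CPM, so replicate 2 was the highest in both groups. All 4 pairs rose, the groups overlapped, and the change of 1.62 ± 0.12 (adjusted p = 0.000225) was not called without the replicate term (adjusted p = 0.0658). *Ccn4* rose by 1.10 ± 0.13. *Thbs2*, an antiangiogenic thrombospondin, measured 2160, 1950, 1110 and 1200 CPM against 687, 871, 298 and 309 CPM, with a change of −1.65 ± 0.14 (adjusted p = 0.000324). *Ccn5* and *Comp* fell by 1.01 and 0.94, though not without the replicate term (adjusted p = 0.672 and 0.384). *Fn1*, *Sparc* and *Postn* were not called, with log2 fold changes of −0.17, −0.10 and −0.25.

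Contractile genes, the usual signature of myofibroblasts, gave 4 rises (22.2%) and 5 falls (27.8%) in 18, and 2 rises and 1 fall without the replicate term. Of all genes at 1 CPM or more, 23.0% rose and 19.1% fell. *Acta2* (smooth muscle α-actin) stood at 177 ± 64 CPM in CTRL and 145 ± 81 CPM with bFGF and was not called (adjusted p = 0.624). *Myh11* fell from 2.23 ± 0.51 to 0.380 ± 0.14 CPM, and *Myl9* and *Mylk* fell by 0.99 and 0.98, although not without the replicate term (adjusted p = 0.0864 and 0.377). Without replicate 2 the fall of *Myl9* was −0.63. The actin-binding genes *Actn1* and *Smtn* and the transcription factor *Srf* rose by 0.99, 0.79 and 0.49.

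Metalloproteinases were called at shares near those of all genes at 1 CPM or more, of which 23.0% were higher and 19.1% lower. Of 23 metalloproteinases and their inhibitors 7 rose (30.4%) and 6 fell (26.1%), with 4 and 4 without replicate 4 and 1 and 3 without the replicate term. *Mmp9*, *Mmp10* and *Mmp1b* were called higher at levels up to 5.57 CPM, none of them without the replicate term, and *Mmp11* fell from 123 ± 33 to 47.1 ± 19 CPM. Of 8 genes of the plasminogen system 5 rose and 0 fell, and 2 rose without the replicate term. *Plaur* (the urokinase receptor) rose from 5.79 ± 0.87 to 33.9 ± 15 CPM (log2 fold change 2.47 ± 0.28, adjusted p = 0.000963). *Plau* (urokinase) rose by 0.69 ± 0.08, with an adjusted p of 0.0656 without the replicate term. Of 17 integrin genes 8 rose and 2 fell, with 3 and 1 without the replicate term. *Itga2*, *Itgb3* and *Itga5*, which bind collagen, vitronectin and fibronectin, rose by 1.71 ± 0.20, 1.55 ± 0.15 and 1.18 ± 0.12. *Itga7*, a laminin receptor, fell by 0.65 ± 0.12.

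Of 11 hyaluronan genes 7 rose and 2 fell, with 4 and 1 without the replicate term. The synthase *Has2* measured 5.43, 8.54, 12.1 and 11.1 CPM in CTRL and 24.2, 28.3, 40.6 and 35.9 CPM with bFGF, so that the groups did not overlap. Its change was 1.84 ± 0.10 (adjusted p = 7.91e-05), and that of *Has1* was 1.86 ± 0.13. *Hmmr*, a hyaluronan-binding protein of the mitotic spindle, rose by 2.09 ± 0.35. The hyaluronan-degrading *Cemip* measured 984, 973, 456 and 345 CPM against 313, 153, 89.0 and 59.0 CPM. Replicates 1 and 2 were higher than 3 and 4 in both groups, and the change was −2.29 ± 0.16 (adjusted p = 0.000159). *Hyal1* fell by 0.47 ± 0.09.

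Secreted signals changed gene by gene. Of 29 cytokines and chemokines 9 rose, 3 fell and 17 were not called, with 5 falls without replicate 2. *Il11*, an IL-6 family cytokine, measured 1.0, 0.922, 1.28 and 1.86 CPM in CTRL and 8.92, 9.64, 16.4 and 13.8 CPM with bFGF, a change of 3.30 ± 0.16 (adjusted p = 5.41e-05). *Ccl2*, the main monocyte chemoattractant, measured 9.22, 25.7, 8.25 and 18.5 CPM against 83.4, 130, 126 and 164 CPM, a change of 3.16 ± 0.22 (adjusted p = 0.000163). In both every bFGF library lay above every CTRL library. *Ccl7*, a related chemokine, rose by 2.13 ± 0.17. The neutrophil chemokines *Cxcl5* and *Cxcl1* fell by 1.68 ± 0.16 and 0.57 ± 0.14, the first with an adjusted p of 0.0977 without the replicate term. *Cxcl12* and *Il33* were not called, but both were called lower without replicate 2, at −0.33 (adjusted p = 0.0336) and −0.45 (adjusted p = 0.00812).

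Of 23 growth factor genes 9 rose and 5 fell, with 5 and 3 without the replicate term. Ligands of the EGF receptor family supplied the 3 largest rises at 1 CPM or more. *Hbegf* measured 6.79, 9.77, 8.41 and 6.04 CPM in CTRL and 42.0, 17.8, 53.0 and 66.3 CPM with bFGF, with replicate 2 the lowest of the bFGF libraries. Its change was 2.43 ± 0.36 (adjusted p = 0.00293). *Ereg* (epiregulin) rose from 16.1 ± 3.5 to 85.7 ± 20 CPM and *Areg* (amphiregulin) from 0.150 ± 0.16 to 1.01 ± 0.73 CPM, the latter not without the replicate term (adjusted p = 0.0564). Vascular growth factors supplied the named falls. *Angpt2*, an antagonist of the TIE2 receptor, measured 300, 121, 240 and 237 CPM against 39.1, 14.4, 14.5 and 9.42 CPM, with a change of −3.64 ± 0.29 (adjusted p = 0.000259) and no overlap. *Vegfd* fell from 554 ± 270 to 157 ± 100 CPM and *Angptl4* from 169 ± 53 to 82.5 ± 19 CPM. *Hgf* and *Vegfb* were not called, and without replicate 2 *Vegfb* was called lower at −0.29 (adjusted p = 0.0122).

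Of 17 receptors for other growth factors 2 rose and 6 fell, and without the replicate term 0 rose and 2 fell. Rises numbered 0 without replicate 1 or 3 and 4 without replicate 2. *Tek* (TIE2), *Ntrk2* and *Kdr* fell. The value of *Kdr* was −2.07, and without replicate 2 it was −1.34 and not called (adjusted p = 0.0603). *Axl* and *Igf1r* rose by 0.37 and 0.24. *Pdgfra*, the usual fibroblast receptor, did not pass the test at 1220 ± 440 and 1150 ± 550 CPM, and was called lower without replicate 2, at −0.20 (adjusted p = 0.0396). Of 10 genes of the IGF system 1 rose and 4 fell, and none was called without the replicate term. Of the IGF-binding proteins *Igfbp4*, *Igfbp3* and *Igfbp5* fell by 1.28, 0.79 and 0.67.

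Complement genes gave 0 rises and 8 falls in 15 tested, with a median log2 fold change of −0.45. The summed list held 4950, 3230, 3570 and 3680 CPM in CTRL and 2870, 1720, 2580 and 2500 CPM with bFGF, so that no bFGF library reached a CTRL library. Leaving out each replicate number gave 6 to 8 lower, and 3 were lower without the replicate term. *C1s1*, a protease of the classical pathway, fell from 388 ± 110 to 167 ± 41 CPM (log2 fold change −1.19 ± 0.07, adjusted p = 0.000104). *C3*, the central component, fell by 0.96 ± 0.16, with an adjusted p of 0.0593 without the replicate term.

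Interferon-induced genes depended on single pairs. Of 20, 7 were called higher and 0 lower, but 0 were called without the replicate term and between 2 (without replicate 1 or 4) and 15 (without replicate 3) with a number left out. The summed list held 710, 2160, 2460 and 3920 CPM in CTRL and 1080, 3100, 2030 and 5430 CPM with bFGF. Pair 3 moved down and the others up, and the spread among CTRL libraries was larger than any change within a pair. *Ifi44* and *Rsad2* rose by 1.26 ± 0.21 and 1.06 ± 0.27 in the paired test, while *Ifit1* and *Ifit3* were not called. *Ifit3* was called higher without replicate 3, at 0.38 (adjusted p = 0.041).

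Of 15 prostaglandin genes 7 rose and 2 fell, with 4 rises without the replicate term. *Ptgs2* (COX-2) and the prostaglandin receptors *Ptger4* and *Ptgir* rose by 1.42 ± 0.19, 2.26 ± 0.12 and 1.30 ± 0.12. *Hpgd*, which degrades prostaglandins, fell from 3.24 ± 1.9 to 0.524 ± 0.29 CPM (log2 fold change −2.59 ± 0.26, adjusted p = 0.000632).

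Of 30 genes of TGFβ and BMP signalling 12 rose and 5 fell, with 2 falls without replicate 1 or 3, and without the replicate term 6 rose and 0 fell. *Inhba*, the subunit of activin A, measured 65.7, 48.9, 57.2 and 60.4 CPM in CTRL and 320, 246, 352 and 377 CPM with bFGF. The libraries of each group lay close together, and the change of 2.49 ± 0.08 had an adjusted p of 1.49e-05. The BMP antagonist *Grem1* and *Bmp2* rose by 1.02 and 0.76, and the BMP targets *Id2* and *Id4* fell by 0.58 and 0.82. None of these 4 was called without the replicate term (adjusted p between 0.0962 and 0.326).

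Of 26 WNT genes 5 rose and 11 fell, with a median log2 fold change of −0.36, and 3 rose and 4 fell without the replicate term. The secreted frizzled-related protein *Sfrp2* fell from 65.3 ± 45 to 5.85 ± 4.9 CPM (log2 fold change −3.48 ± 0.24, adjusted p = 0.000162), and the ligands *Wnt11* and *Wnt4* fell by 2.22 and 1.67. The antagonists *Dkk2* and *Frzb* rose by 2.27 ± 0.19 and 1.49 ± 0.13. *Sfrp1* and *Dkk3* were not called. Of 22 fibroblast and mesenchymal transcription factors 8 rose and 3 fell, with 4 to 10 rises when a replicate number was left out (4 without replicate 1 or 3), and 3 rises and 1 fall without the replicate term. *Meox1* rose from 2.17 ± 0.45 to 9.53 ± 2.8 CPM, and *Osr1*, *Gata6* and *Twist2* fell by 0.95, 0.71 and 0.69. *Tcf21* was called higher at 0.27 ± 0.06 with the replicate term only, and *Prrx1* and *Tbx20* were not called. Of 30 axon guidance genes 12 rose and 10 fell, with 7 and 7 without replicate 3 and 6 and 5 without the replicate term. *Sema7a*, *Sema3a* and *Epha2* rose by 2.30, 2.04 and 1.97, and *Unc5c*, *Epha3* and *Sema3b* fell by 1.32, 1.25 and 1.03.

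Metabolic genes moved mostly upward. Of 19 glycolysis genes 15 rose and 1 fell, with a median log2 fold change of 0.70. Leaving out each replicate number gave 13 to 14 higher, and 13 were higher without the replicate term. The summed list held 2720, 3050, 3130 and 3200 CPM in CTRL and 4920, 5730, 5380 and 5530 CPM with bFGF, so that every bFGF library lay above every CTRL library. *Ldha*, which turns pyruvate to lactate, measured 313, 320, 313 and 320 CPM against 761, 661, 796 and 791 CPM, a change of 1.26 ± 0.07 (adjusted p = 8.34e-05). *Hk2* (hexokinase 2) measured 6.99, 17.3, 8.57 and 8.63 CPM against 26.2, 43.1, 39.6 and 40.4 CPM, a change of 1.93 ± 0.15 (adjusted p = 0.000232). CTRL replicate 2 stood well above the other CTRL libraries, and without replicate 2 the change was 2.11. *Slc16a3*, the lactate exporter MCT4, rose by 1.24 ± 0.08. *Pfkfb3*, an activator of glycolysis, was the 1 member that fell, by 0.54 ± 0.11 (adjusted p = 0.101 without the replicate term).

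Of 20 ribosome biogenesis genes 17 rose and 0 fell, with a median log2 fold change of 0.54. The count was 10 without replicate 3, 11 without replicate 1 and 19 without replicate 2. The nucleolar proteins *Nop56*, *Fbl* and *Nop58* rose by 1.10 ± 0.13, 1.09 ± 0.19 and 0.96 ± 0.13. *Npm1* and *Utp20* were not called, and without replicate 2 *Utp20* was called higher at 0.29 (adjusted p = 0.0101). Of 23 genes of cholesterol synthesis and uptake 12 rose and 0 fell, with 7 without replicate 1 or 4 and 4 without the replicate term. *Stard4*, a carrier of sterols between membranes, rose by 0.69 ± 0.11 (adjusted p = 0.00357). Of 14 fatty acid genes 7 rose and 1 fell, with 4 rises without replicate 4 and 2 without the replicate term. The desaturases *Scd2* and *Scd1* rose by 0.57 and 0.49. Of 21 amino acid genes 11 rose and 2 fell, with 6 rises without replicate 1 or 4 and 5 without the replicate term. *Mthfd1l* and *Mthfd2*, of mitochondrial folate metabolism, rose by 1.32 and 1.12, *Slc1a5* and *Ddit3* fell by 0.89 and 0.79, and all but *Mthfd1l* lost the call without the replicate term.

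Of 16 quiescence genes, many of them FOXO targets, 2 rose and 9 fell. *Pdk4*, which restrains pyruvate oxidation, measured 26.8, 28.1, 38.8 and 36.2 CPM in CTRL and 12.2, 8.73, 11.5 and 9.39 CPM with bFGF, a change of −1.61 ± 0.13 (adjusted p = 0.000279) with no overlap. The ubiquitin ligase *Fbxo32* and the PI3-kinase inhibitor *Pik3ip1* fell by 1.58 ± 0.11 and 1.48 ± 0.15. *Cebpd* and *Irs2* rose by 1.01 and 0.83. Of 17 p53 targets 2 rose, 5 fell and 10 were not called, and 0 rose when replicate 1, 3 or 4 or the replicate term was left out. *Sesn1*, *Trp53inp1* and *Bbc3* fell by 0.98, 0.89 and 0.80, and *Ccng1* and *Cdkn1a* were not called.

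Across all genes at 5 CPM or more in a group, the largest rise was that of *Sele* (E-selectin). It measured 1.79, 1.65, 1.77 and 1.54 CPM in CTRL and 37.0, 18.4, 77.1 and 47.5 CPM with bFGF, a change of 4.61 ± 0.29 (adjusted p = 0.000114). CTRL libraries hardly differed, and the spread lay among the bFGF libraries. *Prokr2*, a prokineticin receptor, followed with 0.380, 0.242, 0.444 and 0.465 CPM against 9.51, 1.61, 9.81 and 13.4 CPM and a change of 4.35 ± 0.29 (adjusted p = 0.000147). Its bFGF replicate 2 was far below the other bFGF libraries. *Synpr*, *Il18rap*, *E2f8* (a repressor of the E2F family), *F13a1*, *Ivl*, *Selp* (P-selectin) and *Upp1* completed the 12 largest rises with *Spry4*, *Etv4* and *Dusp6*, at log2 fold changes from 3.48 to 4.61. Of these *Il18rap* was not called without the replicate term (adjusted p = 0.137).

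E-selectin and P-selectin are best known from endothelium, so endothelial markers are given beside them. Over 8 endothelial markers the libraries summed to 28.6, 31.0, 29.0 and 29.6 CPM in CTRL and 15.2, 23.3, 17.8 and 15.9 CPM with bFGF. *Tek* took the most counts and fell from a mean of 20.0 to 8.03 CPM, whereas the median log2 fold change of the 8 was 0.17. *Cdh5* rose from 1.56 ± 1.4 to 3.47 ± 2.5 CPM (adjusted p = 0.317 without the replicate term), and *Kdr* fell (not without replicate 2, adjusted p = 0.0603). The other 5 were not called, among them *Pecam1* at 0.802 ± 0.16 and 0.870 ± 0.45 CPM. Without the replicate term 0 of the 8 were called higher and 1 lower. The part of endothelial cells in the selectin values was not tested. In bulk RNA a change in the share of cells of a type cannot be told apart from a change of RNA per cell, which holds for every result here.

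Among the largest falls, *Chrdl1*, which encodes a BMP antagonist, measured 13.2, 4.17, 7.24 and 5.96 CPM in CTRL and 1.35, 0.201, 0.381 and 0.209 CPM with bFGF. Replicate 1 was the highest in both groups, and every bFGF library lay below every CTRL library. The change was −3.99 ± 0.25 (adjusted p = 0.000115), a 15.9-fold lower level. Others were *Gdpd2*, *Clca3a2*, *Angpt2*, *Sfrp2*, *Clec3b* (tetranectin), *Adamtsl1*, *Cilp*, *Bmp3*, *Wfikkn2* and *Fads6*, with log2 fold changes from −3.98 to −2.93. All these genes were also called without the replicate term. *Fgf9*, *P4ha1*, *Dcn*, *Ccn4*, *Srf*, *Hyal1*, *Hmmr*, *Wnt4*, *Gata6*, *Twist2* and *Sema3a*, named above, were not, with adjusted p from 0.0502 for *Ccn4* to 0.122 for *Twist2*. Leaving out 1 replicate number also ended calls of genes named above, at adjusted p between 0.0502 for *Dusp5* and 0.214 for *Fgf2*. *Axl*, *C1qb*, *Col1a2*, *Dusp7*, *Fgf2*, *Ier2*, *Igf1r*, *Igfbp5*, *Mmp9*, *Sdc4*, *Srf* and *Twist2* were not called without replicate 1, nor without 3, nor without 4. *Cxcl1* and *Rsad2* were not called without 1 or 4, *Ntrk2* and *Tcf21* without 1 or 3, *Id4*, *Myl9* and *Pfkfb3* without 3 or 4, and *Kdr* without 2 or 4. *Fgfr4* needed replicates 1, 2 and 4, *Fgf9* replicates 2, 3 and 4, *Mylk* replicate 1, *Fosl2* replicate 3, and *Bmp2*, *Dusp5* and *Mmp1b* replicate 4.

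Fibroblast markers were present in every library. The 10 markers summed to between 30400 and 47700 CPM in CTRL and between 22800 and 31200 CPM with bFGF, with *Col3a1* taking the most counts. Of the 10, 2 were called higher and 4 lower (1 and 1 without the replicate term). *Thy1* and *Tcf21* rose by 0.67 and 0.27, *Col3a1*, *Dcn*, *Col1a1* and *Col1a2* fell by 1.0, 0.55, 0.51 and 0.35, and *Vim*, *Ddr2*, *Pdgfra* and *Postn* were not called. Macrophage markers summed to 70.4 to 193 CPM against 55.3 to 137 CPM, with *Lyz2* and *C1qb* called lower by 0.41 and 0.43, not without the replicate term (adjusted p = 0.566 and 0.623). Cardiomyocyte markers summed to 18 to 112 CPM against 4.53 to 31.4 CPM. *Tnnt2* took most of these counts and fell by 2.18 ± 0.28 (adjusted p = 0.206 without the replicate term), whereas *Actc1* and *Pln* stood near 0 and *Myh6* and *Nppa* were at 0 in all 8 libraries. Mural markers summed to 215 to 753 CPM against 214 to 726 CPM, epicardial markers to 5.67 to 7.58 CPM against 3.67 to 5.98 CPM, and Schwann cell markers to 15.0 to 17.4 CPM against 7.06 to 10.3 CPM. Of these, 2 of 8 mural markers were called higher and 2 lower, 1 of 8 epicardial markers higher and 2 lower, and 0 of 6 Schwann cell markers higher and 2 lower. The dependence of level on GC content also differed between groups, with slopes of 0.03 to 0.05 log2 units per 10 percentage points of GC in CTRL and −0.10 to −0.01 with bFGF, and its part in the results was not tested beyond a corrected fit. That fit gave 2891 higher and 3486 lower genes.

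The iCre virus allowed the same contrast to be read in cells with the floxed gene cut. *Map3k7* (ENSMUSG00000028284, chr4:31964097-32023467) measured 155, 144, 154 and 159 CPM in LacZ CTRL and 203, 166, 213 and 212 CPM in LacZ bFGF cells, a rise of 0.39 ± 0.06 (adjusted p = 0.00344). Its means were 127 CPM in iCre CTRL and 150 CPM in iCre bFGF cells. Counts were summed over all exons, so they do not check the loss of the floxed exon. In iCre cells bFGF gave 1707 higher (6.77%) and 1234 lower (4.89%) genes.

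The difference between both effects of bFGF was tested as an interaction in a fit of all 16 libraries, again with replicate number. It called 0 genes higher and 1 lower of 25210 (0.00397%) by edgeR, while 1384 (5.49%) had an unadjusted p of at most 0.05. Among genes at 1 CPM or more, 889 of 13477 had such a p. So did 11 of 19 glycolysis genes, 7 of 27 replication genes, 6 of 19 ERK targets and 4 of 13 ERK feedback genes. Of 22 collagens and 26 mitosis genes 0 had it. These shares were not tested, and edgeR called no gene of these lists. DESeq2 with the same terms called 41 higher and 19 lower. The gene called by edgeR was *AI593442*, whose values outside replicate 2 lay near 0. It was not among DESeq2's calls, nor called by edgeR when any replicate number was left out. *Etv4* changed by 1.94 log2 units in iCre cells, where CTRL libraries measured 4.52, 15.6, 5.60 and 8.79 CPM and bFGF libraries 26.6, 22.2, 33.5 and 39.2 CPM. The bFGF values resembled those of LacZ cells and the CTRL values were higher. The difference of −1.83 ± 0.42 had an adjusted p of 0.832. *Etv5*, *Dusp4*, *Spry4* and *Dusp6* had differences of −1.52 ± 0.33, −1.42 ± 0.49, −1.26 ± 0.36 and −1.13 ± 0.36, with adjusted p of 0.729, 0.889, 0.889 and 0.889. By DESeq2 with the same terms *Etv5* was among the calls.

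Beside the LacZ medians of 1.29, 1.04, 1.50 and 2.16, the median log2 fold changes in iCre cells were 0.89 for the ERK feedback genes, 0.70 for ERK targets, 0.96 for DNA replication and 2.52 for mitosis, and 26 of 26 mitosis genes were called higher there. For *Bub1* the difference between both effects was 0.14 ± 0.44. Named genes were picked largely on LacZ values, so a smaller value of theirs in iCre cells is no evidence of a difference. The lists were written with earlier results of these data known, and the differences between their medians were not tested.

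**Figure D5:**
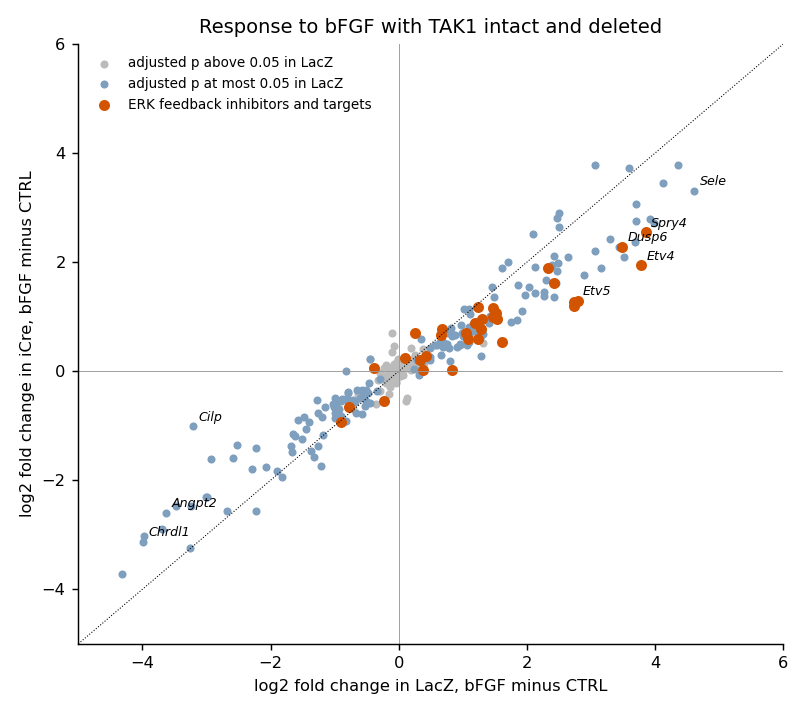
Log2 fold change of bFGF against CTRL in iCre cells (y axis) against LacZ cells (x axis) for the 267 named genes at 1 CPM or more in a LacZ group, with the line of equal change. Of 116 called rises plotted, 103 had a lower value in iCre than in LacZ cells, on whose values the genes were largely picked. Of 82 called falls, 68 were smaller in iCre cells. The rises of *Etv4*, *Etv5*, *Spry4* and *Dusp6* were lower in iCre cells, and none of these 4 was called as different by edgeR. Some genes with small changes in LacZ cells lie off the line, such as *Sema3d* at −0.10 in LacZ and 0.71 in iCre cells.

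The bFGF libraries were also set against those treated with TGFβ, the standard activator of fibroblasts into myofibroblasts. Both comparisons share the 4 bFGF libraries. bFGF was higher than TGFβ in 3956 genes (15.7%) and lower in 3723 (14.8%), together 30.5%. *Acta2* stood at 145 ± 81 CPM with bFGF and 4000 ± 2180 CPM with TGFβ (difference −4.75 ± 0.53, adjusted p = 0.000897), and 14 of 18 contractile genes were lower with bFGF. *Col1a1* stood at 3430 ± 660 and 21500 ± 3630 CPM, and 12 of 22 collagens, 13 of 17 collagen-processing genes and 16 of 21 matrix glycoproteins were lower with bFGF. *Lox*, *Ccn2* and *Il11* were lower by 4.0, 2.09 and 2.72, although *Ccn2* and *Il11* rose with bFGF against CTRL.

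Mitosis and interferon genes differed in the other direction. All 26 mitosis genes, 24 of 27 replication genes, 20 of 20 interferon genes and 9 of 15 complement genes were higher with bFGF than with TGFβ. Of the ERK feedback genes 9 of 13 were higher and 0 lower, with *Dusp6* at 69.8 ± 19 CPM against 7.78 ± 2.8 CPM (difference 3.17 ± 0.17, adjusted p = 7.92e-05). Of the ERK targets 8 were higher and 6 lower, and *Myc* and *Ier3* were lower by 1.01 and 1.15. *Fgf1* stood at 17.0 ± 5.6 CPM with bFGF and 0.899 ± 0.38 CPM with TGFβ. All 23 cholesterol genes were lower with bFGF than with TGFβ, as were 15 of 19 glycolysis genes, 20 of 21 amino acid genes and 15 of 20 ribosome biogenesis genes. *Ldha* stood at 752 ± 63 and 1190 ± 300 CPM, so this gene, which rose with bFGF against CTRL, stood higher still with TGFβ.

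The largest differences at 5 CPM or more lay in genes that TGFβ libraries held at high or near-0 levels. *Acan* (aggrecan), *Fgf21* and *C1qtnf3* were lower with bFGF by 8.87, 8.33 and 7.37 log2 units. *Adh1*, *Galnt15* and *Cldn1* were higher by 8.19, 7.13 and 6.13. *Adh1* measured 1.25, 77.4, 2.44 and 1.88 CPM with bFGF, so its group mean rested on replicate 2, and 0, 0.165, 0.0534 and 0.0379 CPM with TGFβ.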

How the data were processed

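The count table held deposited counts of reads per gene for 40 poly-A RNA libraries, with 55414 genes. Per the study's methods and the submitters' processing notes, the authors checked single-end NextSeq 2000 reads with FastQC (0.10.1 in the notes, another version in the methods), aligned them with STAR to GRCm38 (mm10) and counted them per gene with HTSeq 0.10.0. The strand setting and annotation release are not given in the sources used here, and the labels and the methods name different library kits (NEBNext Ultra II and TruSeq Stranded mRNA). Overlapping and antisense genes may therefore share reads. The number of counts limits the precision. With the replicate term, p-values set the mean change against the variation left once replicate number is accounted for. Without it they set the change against the spread of libraries within groups.

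Symbols and coordinates came from GENCODE M21 (GRCm38), which held 52133 of the identifiers. Genes with at least 10 counts over the 40 libraries (25210) were tested by edgeR 4.0.16 in R 4.3.3 with TMM scaling, replicate number and group as terms, the quasi-likelihood F test and Benjamini-Hochberg adjustment at 0.05. Dispersion priors were fitted separately for genes that passed and failed edgeR's filterByExpr, a choice made after tests on simulated data. In 1 simulated set of 25210 genes for the comparison of bFGF with CTRL, 67 of 100 genes changed by 1 log2 unit and 97 of 100 changed by 2 were recovered, and 9 of 173 calls were false. For the interaction 55 and 89 of 100 were recovered, and 10 of 154 calls were false. For bFGF against TGFβ 31 and 85 of 100 were recovered, and 11 of 127 calls were false. Standard errors were derived from the log2 fold change and F. Same-numbered libraries deviated together (r from 0.55 to 0.78), so the numbers were taken as pairs. CPM were scaled by TMM over the 40 libraries and log2 ratios of pairs used a pseudocount of 0.1 CPM. The interaction used the 16 CTRL and bFGF libraries, and the comparison with TGFβ the 8 bFGF and TGFβ libraries.

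The named genes were *Map3k7*, *Fgf2* and *Fgfr1* to *Fgfr4*, the 12 largest rises and falls at 5 CPM or more that were called and moved alike in 4 of 4 pairs, leaving out predicted genes, and all members of the ERK and FGF lists. They also held up to 3 rises, 3 falls and the 2 genes not called with the highest CPM of each of 34 lists, the markers of 7 cell types, genes called in the interaction, and the 3 largest differences from TGFβ each way. *Sdc1* and *Sdc2* were added after their values were seen. The comparison, the lists and the members were chosen with earlier results of these data known. Alternatives were DESeq2 1.42.0, no replicate term, other scalings and filters, protein-coding genes only, a GC correction, a single dispersion prior and leaving out each replicate number. Python 3.11.15, pandas 2.3.3, numpy 2.4.6 and scipy 1.17.1 were used for the tables. The IL-1β and TNFα libraries entered only the count filter, the scaling and 1 alternative fit. Some genes that this rule named are not reported here.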

Additional observations from a re-analysis of the deposited data

Results flagged for a closer look

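In groups of 4 libraries, a value was marked when its gap to the nearest other value took a larger part of the group's range than Dixon's critical value allows. Of 110 groups tested 8 were marked, and chance marks about 1 in 20. Of these, 4 were CTRL replicate 2 standing above the other CTRL libraries. They were *Dusp6* at 15.0 CPM, *Spred1* at 146 CPM, *Egr1* at 189 CPM and *Hk2* at 17.3 CPM. Another 2 were bFGF replicate 2 standing above the other bFGF libraries, with *Cdkn1c* at 47.2 CPM and *Cdkn1b* at 115 CPM. Without replicate 2 the log2 fold changes were 3.81 for *Dusp6*, 0.53 for *Egr1*, 2.11 for *Hk2* and −3.16 for *Cdkn1c*. *Chrdl1* in bFGF replicate 1, at 1.35 CPM, stood above the other bFGF libraries. The last was the GC slope of bFGF replicate 4, at −0.1005 log2 units per 10 percentage points of GC.

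The effect of bFGF differed between LacZ and iCre cells by the interaction test for *AI593442*, at −4.48 log2 units (adjusted p = 0.000127). LacZ bFGF replicate 2 held 1.96 CPM while the other 3 LacZ bFGF libraries stood near 0, and 1 of 4 LacZ pairs was higher. In iCre cells replicate 2 held 1.35 CPM in CTRL and 4.18 CPM with bFGF. Without replicate 2 its log2 fold change in LacZ cells was 0.00 (adjusted p = 1). The interaction was not called for this gene by DESeq2, nor by edgeR without any 1 replicate number.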

How the results depend on the processing

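The counts by edgeR depended on the replicate block more than those by DESeq2. Without it bFGF against CTRL gave 1844 higher and 1250 lower genes by edgeR (3067 of the 6304 calls kept) and 2515 and 2157 by DESeq2 (4455 kept), where both counts stayed within 1.5 times. By edgeR without the block the 34 lists together (641 genes) gave 157 higher and 52 lower against 270 and 130 with it, and DESeq2 without the block gave 84 lower list genes. Of the 6304 called genes 0 changed sign while called under any alternative run. With 3 of the 4 replicate numbers, the counts ranged from 1908 to 3599 higher and 1705 to 3463 lower. The lowest came without replicate 3 and the highest without replicate 2. List genes ranged from 212 to 297 higher and 101 to 144 lower. Requiring a change of at least 1 log2 unit left 966 and 967. RLE scaling, filterByExpr, no filter, protein-coding genes only, the GC correction, all 40 libraries, a single dispersion prior (added after seeing the data) and DESeq2 with the block kept both counts within 1.5 times. Of 219 named genes called, 90 were not called without the block, 175 kept the call without each replicate number, and 0 reversed under any alternative run.

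The interaction gave 41 higher and 19 lower genes by DESeq2 with the block. It gave 0 lower without the block, by DESeq2 without it, after filterByExpr and with a single dispersion prior, and 0 to 4 lower when a replicate number was left out (4 without replicate 2). *AI593442* was among none of these calls. bFGF against TGFβ gave 2249 higher and 1149 lower with a change of at least 1 log2 unit, and 2601 to 3534 higher and 2469 to 3663 lower when a replicate number was left out, the lowest without replicate 3. The cause of these changes was not tested. In genes near 1 CPM and below single libraries can decide values, as in *AI593442*, and the part of sequencing depth was not tested.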

Other observations

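DESeq2 called 60 genes in the interaction of bFGF with the iCre virus, of which 20 stood at 5 CPM or more in a LacZ group. The 4 of these that belonged to a list were *Etv5*, *Angptl4*, *Pcolce2* and *Sema3d*. *Angptl4* fell by 0.99 on the log2 scale in LacZ cells and had a value of −0.49 in iCre cells. *Pcolce2* fell by 0.45 in LacZ cells and had a value of 0.22 in iCre cells. *Sema3d* had values of −0.10 and 0.71. None of them was called in the interaction by edgeR.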
